A study of Drosophila melanogaster with 2 samples.

Results

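The vacuolar ATPase is a rotary proton pump of endosomes, lysosomes and some plasma membranes. Its soluble V1 sector splits ATP, its membrane V0 sector carries protons, and the acid it makes drives protein breakdown, membrane traffic and nutrient sensing. Flies keep several gene copies for many subunits. As a rule, 1 copy is expressed widely and the other copies mainly in particular tissues, often the testis. The genes described here are the 33 protein-coding genes, of 13968 in the Ensembl annotation, whose symbol starts with Vha. They were sorted by textbook knowledge into 14 widely used subunit genes and 19 other paralogues. All of them were read for peaks of tagged CG9215, a protein with C2H2 zinc fingers.

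The data come from Drosophila melanogaster embryos, 0 to 24 h old and taken whole, of a transgenic strain that expresses CG9215 fused to eGFP. Chromatin was immunoprecipitated with an antibody to GFP and sequenced. The study has 1 group of 2 biological replicates and no untagged, mutant or treated group, and no control library was analysed here. The labels do not say which promoter drives the fusion or which embryonic cells contribute, so a site used in few cells and a site occupied at a low level cannot be told apart. The peak lists hold no expression values, so the tissue could not be checked against marker genes.

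The authors deposited 8 peak lists on dm6. Each replicate has a ranked list, of 108069 peaks in replicate 1 and 112176 in replicate 2, and a thresholded list, of 3442 and 2624 peaks. The series has a conservative thresholded list of 3718 peaks, another thresholded list of 4098 peaks, and 2 ranked lists of 122959 and 123274 peaks. Source peaks of the shorter ranked list recur in the ranked list of replicate 1, the only replicate checked. The shorter list also holds the conservative peaks. It is called the replicate-based list here. Signal is the value of the authors' peak caller and was compared within a list only. Depth is unknown, as the lists carry no counts of reads. A gene was counted as carrying a summit if the highest point of a peak lay within 500 bp of any annotated start site. Negative positions are upstream of the gene's own start.

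The 101 bp around 6 summits are shown because the results below turn on these genes: conservative summits of Vha100-2 and Vha13, which are widely used, and of Vha68-1 and Vha16-5, which are not, then Vha55, whose peak was reproducible but absent from every thresholded list, and Vha68-2, the widely used copy whose paralogue Vha68-1 carried the thresholded peak. Each is from the RefSeq copy of Release 6 (dm6), reads 5′ to 3′ on the strand of its gene, and has its longest run of A and T in capitals.
Vha100-2, chr3R:18397203-18397303, minus strand: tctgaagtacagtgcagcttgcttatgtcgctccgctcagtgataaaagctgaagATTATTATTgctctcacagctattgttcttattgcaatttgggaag
Vha68-1, chr2L:13004204-13004304, minus strand: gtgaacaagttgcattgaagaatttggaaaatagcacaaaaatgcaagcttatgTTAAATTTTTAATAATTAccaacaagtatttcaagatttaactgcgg
Vha16-5, chr2L:10737303-10737403, minus strand: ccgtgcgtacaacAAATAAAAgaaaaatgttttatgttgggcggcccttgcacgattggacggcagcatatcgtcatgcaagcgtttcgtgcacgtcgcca
Vha13, chr3R:19644451-19644551, minus strand: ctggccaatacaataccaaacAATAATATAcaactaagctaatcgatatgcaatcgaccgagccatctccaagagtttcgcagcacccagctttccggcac
Vha55, chr3R:12627845-12627945, minus strand: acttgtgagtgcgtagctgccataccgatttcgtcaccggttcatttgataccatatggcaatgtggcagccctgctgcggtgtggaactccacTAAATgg
Vha68-2, chr2L:12974143-12974243, plus strand: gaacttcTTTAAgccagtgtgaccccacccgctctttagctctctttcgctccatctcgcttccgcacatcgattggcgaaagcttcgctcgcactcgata

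The run of A and T was 18 bases at Vha68-1, 9 at Vha100-2, 9 at Vha13 and 8 at Vha16-5, against 5 at Vha55 and 5 at Vha68-2. These windows were picked, and the runs of the 2 kinds of summit overlapped over all Vha genes. The 9 conservative Vha summits had runs of 5 to 25 bases with a median of 9, and Vha36-1 and the distal Vha100-2 summit were at 5. The strongest ranked summits of 13 Vha genes that passed in no list, Vha55 aside, had runs of 3 to 30 bases with a median of 6, the longest at VhaAC39-2. The median longest run was 10 bases over the 1845 conservative promoter summits of all genes. It was 6 bases over 11038 promoter summits of ranked peaks that overlapped no thresholded peak.

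Of the 33 Vha genes, 6 (18.2%) carried a conservative promoter summit, against 17.3% of all protein-coding genes. This share is near the background. The 6 genes were Vha100-2, Vha16-1, Vha13 and Vha36-1 among the widely used genes, and Vha68-1 and Vha16-5 among the other paralogues. They encode 3 of the 13 V1 genes' products, subunits A, D and G, and 3 of the 18 V0 genes' products, subunit a and 2 copies of subunit c. Neither of the 2 genes for the accessory protein Ac45 had one.

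By class, 4 of 14 widely used genes (28.6%) carried a conservative summit, against 2 of 19 other paralogues (10.5%) and 17.3% of all protein-coding genes. In the other thresholded list the counts were 5 of 14 (35.7%) and 2 of 19 (10.5%), with 7 of 33 in all (21.2%), against a background of 18.1%. In replicate 1 they were 4 of 14 and 2 of 19, with 6 of 33 in all (18.2%), against 16.1%. In replicate 2 they were 3 of 14 (21.4%) and 2 of 19, with 5 of 33 in all (15.2%), against 14.5%. The widely used class was the higher in each of these 4 thresholded lists. The lists share libraries, the classes differ by 1 to 3 genes in each list, and the difference was not tested. Of the widely used genes, 5 are the only gene of their subunit: Vha13, Vha26, Vha44, Vha55 and VhaSFD. The classes are therefore not matched copy for copy.

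**Figure D1:**
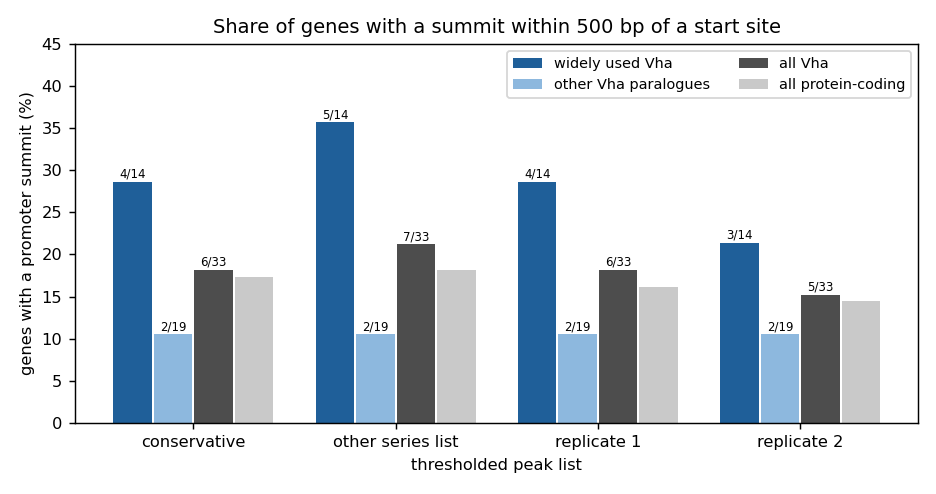
Bars give the share of genes (%, axis from 0) with a summit within 500 bp of a start site in each of the 4 thresholded lists, for widely used Vha genes, other Vha paralogues, all Vha genes and all protein-coding genes, with counts above the Vha bars. The share of all Vha genes lay between 15.2% and 21.2%, beside 14.5% to 18.1% of all protein-coding genes.

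Number of start sites and neighbouring genes differed between the classes. A single start site was annotated for 9 of 14 widely used genes and 16 of 19 other paralogues. For 8 of 14 widely used genes and 5 of 19 other paralogues, another protein-coding gene started within 500 bp of an own start site. Starts of non-coding genes were left out here. In such shared promoter regions, 4 of 13 Vha genes had a conservative summit (30.8%), against 34.4% of protein-coding genes so placed. In this stratum 2 of 8 widely used genes and 2 of 5 other paralogues had one. Away from other protein-coding starts, 2 of 20 Vha genes had a summit (10%), against 9.69% of protein-coding genes so placed. Those were the widely used Vha13 and Vha16-1, of 6 such widely used genes, against 0 of 14 other paralogues. Genes with a single start site had a summit in 4 of 25 Vha cases, against 13.4% of protein-coding genes, and genes with 2 start sites in 2 of 6 Vha cases, against 24.8%. Vha55 and Vha68-2, with 3 or more start sites, had none, against 35.4%. The part of these features in the difference between classes was not tested.

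Vha100-2 encodes a copy of subunit a, the V0 subunit that holds the proton half-channels, and had the strongest conservative peak with its summit within 500 bp of a Vha start. The peak at chr3R:18397082-18397368 had a signal of 469 and rank 378 of 3718. In replicate 1 the signal there was 250, rank 384 of 3442, and in replicate 2 it was 228, rank 372 of 2624. The site thus stood within the top 14.2% of each of these lists. Its summit lay 325 bp upstream of the internal Vha100-2 start, inside the longer Vha100-2 transcript unit, and also in the 5′ UTR of Vti1b, a SNARE protein gene whose start was nearer, at 258 bp.

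A further Vha100-2 peak at chr3R:18399114-18399529 lay 153 bp upstream of the distal start, with a signal of 101 and rank 2697. It passed in replicate 1 with a signal of 52.1. In replicate 2 its ranked peak had a signal of 43.9 and did not pass, with a −log10 IDR of 1.42 where at least 2 was needed. IDR, the irreproducible discovery rate, estimates how many peaks of a list would fail to recur. A conservative peak of signal 5.89, summit 355 bp upstream, overlapped this peak and had the low rank of 3677. The 4 other genes for subunit a, Vha100-1, Vha100-3, Vha100-4 and Vha100-5, had no thresholded promoter summit. Their ranked signals were 13.8 and 24.4 in replicates 1 and 2 at Vha100-1, 12.5 and 6.34 at Vha100-4, and 14.4 and 17.4 at Vha100-5, and Vha100-3 had no ranked promoter summit.

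Vha16-1 encodes the widely used copy of subunit c, the proteolipid that forms the proton-carrying ring. It had a promoter summit at each of its 2 start sites. The peak at chr2R:6632522-6632723 lay 230 bp upstream of the internal start with a signal of 316, rank 708, and had 136 in replicate 1 and 177 in replicate 2. The peak at chr2R:6633058-6633473 lay 176 bp upstream of the distal start with a signal of 132, rank 2082, and had 89.0 in replicate 1 and 60.9 in replicate 2. Both passed in both replicates, and no other gene had a start site within 500 bp. A further conservative peak in an intron of Vha16-1, at chr2R:6631368-6631621, was stronger than either, with 384 and rank 520, but lay 878 bp from the nearest start.

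Vha16-5, another copy of subunit c, had a peak at chr2L:10737145-10737560 with a signal of 202, rank 1262. Replicate 1 had 111 and replicate 2 had 95.3, and it passed in both. The summit lay 310 bp upstream of Vha16-5 and 8 bp from the start of CG12299, in the 5′ UTR of that gene, so by distance alone the peak belongs to CG12299. Vha16-3 had weak ranked peaks of 13.5 and 16.3 in replicates 1 and 2, and Vha16-2 and Vha16-4 had none.

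Subunit A, the catalytic subunit of V1, was the case in which a paralogue carried the peak and the widely used copy did not pass. Vha68-1 had a peak at chr2L:13004142-13004363, 147 bp upstream of its start, with a signal of 328, rank 659. The signal was 190 in replicate 1, rank 579, and 140 in replicate 2, rank 779. These ranks are 16.8% and 29.7% of the way down the thresholded lists, which differ in length. In the full ranked lists the peak stood at 0.558% and 0.725%. The same peak was 226 bp from the start of mTor, on the other strand, which encodes the TOR kinase. Vha68-2, the widely used copy, had a ranked peak with its summit 129 bp upstream, of 18.8 in replicate 1, 50.6 in replicate 2 and 67.1 in the replicate-based list, and it passed in none. Vha68-3, which lies next to Vha68-2, had a ranked peak in replicate 1 alone, of 15.4. In both replicates Vha68-1 thus stood above Vha68-2, by signal within each list. If Vha68-1 is counted as widely used, the classes stand at 5 of 15 and 1 of 18.

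Vha13 encodes subunit G, part of the stalks that hold the stator. Its peak at chr3R:19644293-19644708 lay 115 bp upstream of its only start site and ranked 1701, with a signal of 157. Replicate 1 had 87.3, rank 1679 of 3442, and replicate 2 had 60.7, rank 2113 of 2624. The peak passed in both, 48.8% of the way down the thresholded list of replicate 1 and 80.5% down the shorter one of replicate 2. In the full ranked lists it stood at 1.64% in replicate 1 and 2.08% in replicate 2, so its place there was similar. No other start site lay within 500 bp, so Vha13 and Vha16-1 are the genes whose peaks are not shared with a neighbour.

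Vha36-1 encodes subunit D, the rotor shaft. Its peak at chr2R:15541205-15541620 was centred 22 bp upstream of its start and 50 bp from that of CG8187, with a signal of 118 and rank 2343. Replicate 1 had 63.2 and passed. Replicate 2 had 52.3 with a −log10 IDR of 0.81 and did not pass. Of the other copies of subunit D, Vha36-2 had ranked signals of 24.2 in replicate 1 and 40.3 in replicate 2, and Vha36-3 had 22.6 in replicate 2 alone. Vha44, which encodes subunit C, a stator subunit, passed in the other thresholded list alone. Its peak at chr2R:16336623-16337038 had a signal of 86.1 there, rank 3220 of 4098, with 23.9 in the ranked list of replicate 1 and 55.6 in that of replicate 2. The summit lay 194 bp upstream of Vha44 and 71 bp from the start of Hmgs, a gene of mevalonate synthesis.

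**Figure D2:**
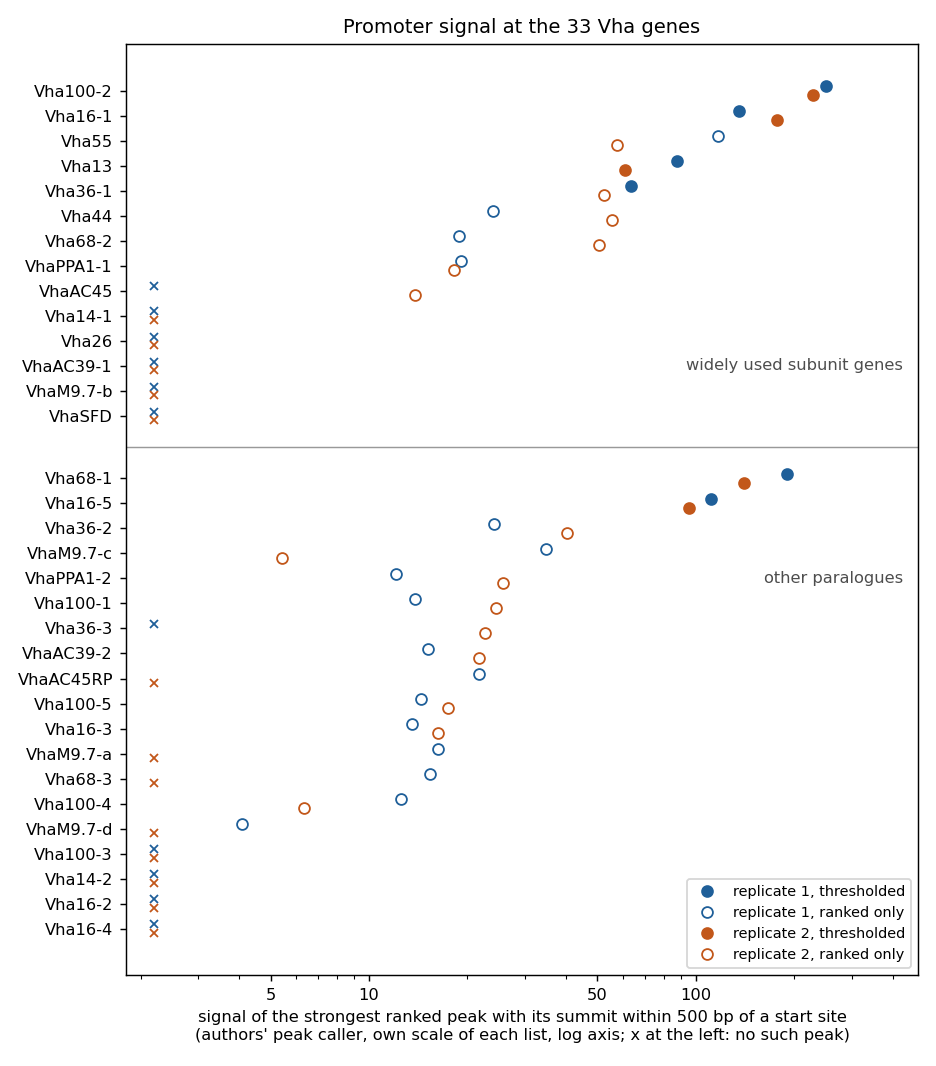
Points give the peak caller's signal (log axis, own scale of each list) of the strongest ranked promoter summit at each of the 33 Vha genes in replicate 1 and replicate 2, filled where a peak at that gene passed the threshold of that replicate, crosses at the left where there was no such peak. The 5 genes (15.2%) filled in both replicates, against 12.8% of all protein-coding genes, are Vha100-2, Vha16-1 and Vha13 in the upper block and Vha68-1 and Vha16-5 in the lower block.

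Vha55 encodes subunit B, which forms the head of V1 together with subunit A. It was the 1 Vha gene with a promoter peak that reached the IDR of the thresholded lists and was in none of them. In the replicate-based ranked list its peak at chr3R:12627687-12628102 had a signal of 170, rank 1617 of 122959, and a −log10 IDR of 3.23. Replicate 1 had 117 with a −log10 IDR of 4.69, and replicate 2 had 57.5 with 2.22. The replicate 1 signal was above the 87.3 of Vha13, which passed, and the replicate 2 signal was just below the 60.7 of Vha13. The summit lay 66 bp upstream of Vha55 and 136 bp from the start of Snx3, and the nearest conservative summit was 26313 bp away.

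Removal of such peaks was not particular to Vha55. Of the ranked peaks at an IDR of at most 0.01, 185 of 3903 (4.74%) were absent from the conservative list, 217 of 3659 (5.93%) from that of replicate 1 and 129 of 2753 (4.69%) from that of replicate 2. They lay near 52, 43 and 41 protein-coding genes in that order, of which Vha55 was the only Vha gene each time. No source used here states the rule behind the removal. With these peaks counted, 7 of 33 Vha genes (21.2%) had a promoter summit, 5 of 14 widely used and 2 of 19 others, against 17.7% of all protein-coding genes.

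All conservative promoter summits of Vha genes were on the upstream side. The 9 pairs of a Vha gene and a conservative summit had a median position of -176 bp, between -355 and -22 bp, and the summits of Vha44 and Vha55 were also upstream. Over all protein-coding genes, 2398 of 2695 such pairs (89.0%) were upstream, with a median of -142 bp. For the strongest Vha100-2 peak, Vha16-5 and Vha44 the nearest start belonged to a divergent neighbour, and upstream of the Vha gene then meant just inside that neighbour. The weak Vha100-2 summit, which sets the -355 bp limit, was also nearer to a start of Vti1b, at 185 bp, but upstream of that start.

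**Figure D3:**
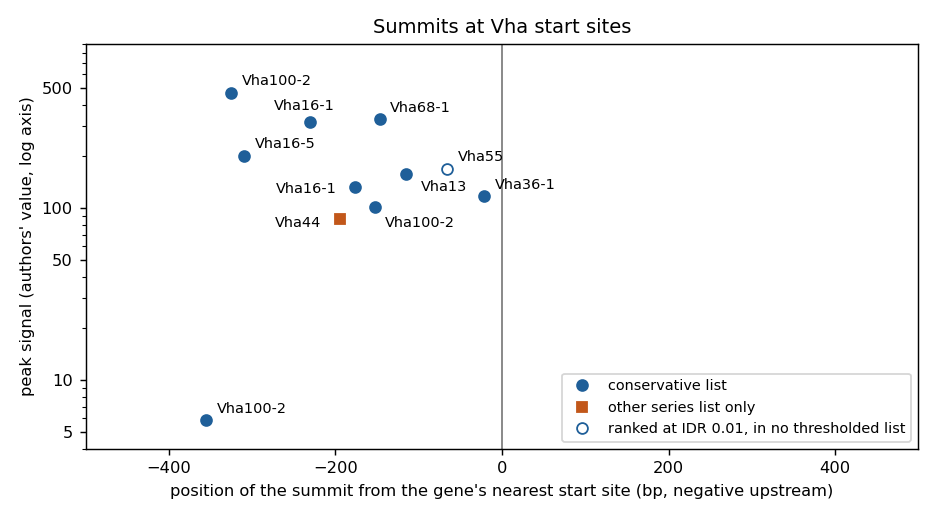
Each point is a summit, by its position from the nearest start site of its own Vha gene (bp, negative upstream) and its peak signal (authors' value, log axis), in the conservative list, in the other series list only (Vha44), or ranked at an IDR of at most 0.01 and in no thresholded list (Vha55). All points lie left of 0, between -355 and -22 bp.

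The 500 bp limit left out conservative peaks farther from Vha starts. Closest to the limit on its inner side were the summits of Vha16-5 at 310 bp and of Vha100-2 at 325 and 355 bp. The nearest outside it lay 838 bp from the start of Vha14-1, which encodes subunit F of the rotor. That peak had a signal of 667, rank 229, the highest near any Vha gene, but it lay 180 bp past the 3′ end of Vha14-1 and 290 bp from the start of Gmppa, a gene of sugar nucleotide metabolism. A peak of 123 lay in an intron of Vha100-2, 3291 bp from its nearest start. Others within 3000 bp of a Vha gene were nearer to starts of other genes. The peak of 196 upstream of Vha36-3 was 146 bp from AANATL7, that of 136 past VhaPPA1-2 was 59 bp from Nup93-2, and that of 75.2 past Vha14-2 was 22 bp from lncRNA:CR43486. A peak of 416 past VhaSFD lay in an intron of Cyt-c-p, which encodes cytochrome c.

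The remaining genes had weak ranked peaks or none. Any ranked promoter summit was present at 22 of 33 Vha genes in replicate 1 (66.7%), against 63.0% of protein-coding genes, and at 20 in replicate 2 (60.6%), against 65.5%. In the replicate-based list it was 21 (63.6%), against 65.0%, and in the other ranked list also 21, against 65.0%. In all, 18 Vha genes (54.5%) had one in both replicates, against 53.7% of protein-coding genes, 6 (18.2%) in a single replicate, against 21.1%, and 9 (27.3%) in neither, against 25.2%. Those 9 included 5 widely used genes: Vha14-1, Vha26, which encodes stalk subunit E, VhaSFD, which encodes the regulatory subunit H, VhaAC39-1, which encodes subunit d, and VhaM9.7-b, which encodes the small subunit e. The other 4 were Vha100-3, Vha14-2, Vha16-2 and Vha16-4. Vha14-2 had a summit of 20.6 in the 2 series-level ranked lists only.

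Among the genes not yet given, VhaPPA1-1, which encodes subunit c″ of the ring, had 19.1 in replicate 1 and 18.2 in replicate 2, and its paralogue VhaPPA1-2 had 12.1 and 25.7. VhaAC39-2, the other subunit d gene, had 15.2 and 21.7. VhaM9.7-c, a copy of subunit e, had 34.7 in replicate 1 and 5.40 in replicate 2. VhaM9.7-a had 16.3 and VhaM9.7-d had 4.08, in replicate 1 only. VhaAC45 had 13.8 in replicate 2 only, and VhaAC45RP had 21.7 in replicate 1 only. Of these genes, VhaM9.7-c was the highest in replicate 1, above the 24.2 of Vha36-2 there, and VhaPPA1-2 was the highest in replicate 2, below the 40.3 of Vha36-2 there.

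With a gene lacking a ranked peak counted as 0, the median strongest promoter signal was 14.4 over the Vha genes in replicate 1, against 13.3 over all protein-coding genes, and 16.3 in replicate 2, against 15.1. The widely used genes had medians of 18.9 and 34.4 in replicates 1 and 2, against 13.8 and 6.34 for the other paralogues. Of the 14 widely used genes, 6 in replicate 1 and 5 in replicate 2 had no ranked promoter summit, against 5 and 8 of the 19 other paralogues. By share of genes with any ranked summit the order of the classes turned between the replicates, with 57.1% of widely used genes and 73.7% of other paralogues in replicate 1, and 64.3% and 57.9% in replicate 2.

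The conservative Vha summits had a lower median A+T content than the conservative promoter summits of all genes, on few windows. The windows came from 6 genes, with more than 1 at Vha100-2 and at Vha16-1. The 9 Vha windows of 101 bp had a median A+T content of 54.5%, between 50.5% and 75.2%, against a median of 67.3% (quartiles 58.4% and 73.3%) over the 1845 conservative promoter windows of all genes. Of the 9, 6 lay below that median, which by definition splits the conservative windows of all genes about evenly. The 3 above it were Vha68-1 at 71.3%, the distal Vha16-1 summit at 73.3%, with a run of 25 A or T bases, and the weak Vha100-2 peak at 75.2%. The strong Vha100-2 summit had 59.4% and the internal Vha16-1 summit, Vha16-5 and Vha36-1 had 50.5% each. Vha55 had 48.5% and Vha68-2 had 46.5%.

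Ranked promoter summits of all genes that overlapped no thresholded peak had a median of 50.5% (quartiles 43.6% and 57.4%). The strongest ranked summits of the 13 Vha genes, Vha55 aside, that had a summit in the replicate-based list and passed in none had a median of 48.5%, between 33.7% at VhaPPA1-1 and 67.3% at VhaAC39-2. These windows show the composition at the summits and were not compared by a test. Across the whole promoter, from 250 bp before to 50 bp after the most upstream start, the Vha genes had a median A+T content of 63.3% and all protein-coding genes 62.0%.

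**Figure D4:**
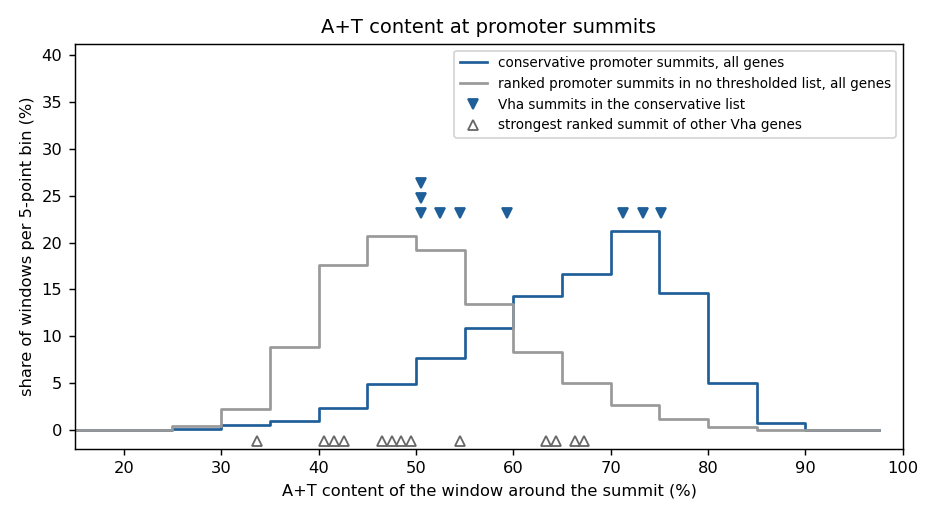
Lines give the share of windows (%) by A+T content of the 101 bp around the summit (%), in bins of 5 percentage points, for conservative promoter summits of all genes and for ranked promoter summits in no thresholded list. Filled triangles mark the 9 conservative Vha summits and open triangles the strongest ranked summit of 13 other Vha genes, at heights without meaning, and 6 of the 9 filled triangles lie left of the conservative median of 67.3%.

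Short motifs were counted on both strands of the promoters just defined, beside all promoters of the same length. CGATA, the core bound by the insulator protein BEAF-32, was in 19 of 33 Vha promoters (57.6%), against 47.3% of all promoters, and in all 6 with a conservative summit, against 55.3% of all promoters with one. The promoters so defined leave out the summit of Vha16-5, the strongest promoter summits of Vha100-2 and Vha16-1, and the weak Vha100-2 summit. In the 101 bp windows CGATA was in 4 of 9 Vha summits, those of Vha16-5, Vha13, Vha36-1 and the distal Vha100-2 peak, against 21.1% of conservative promoter windows. TATCGATA, the DNA replication-related element, which contains CGATA, was in 2 Vha promoters (6.06%), those of Vha55 and VhaSFD, against 9.36%. CACGTG, the E-box read by Mitf, the lysosomal gene regulator, was in 3 (9.09%), those of Vha44, VhaAC45RP and VhaM9.7-d, against 4.20%. It was in none of the 6 with a conservative summit, and in only 5.42% of all promoters with one.

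Of the other motifs, the TATA box TATAAA was in 17 Vha promoters (51.5%), against 45.8%, the GAGA element GAGAG in 9 (27.3%), against 29.7%, the initiator TCAGTT in 10 (30.3%), against 26.1%, and the E-box CAGCTG in 8 (24.2%), against 17.6%. The core promoter Motif 1, GGTCACACT, was in 3 (9.09%), against 6.04%, and CAGGTA, read by the early activator Zelda, in 1 (3.03%), against 6.24%. A match only says that the letters are there.

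Genes that work with the pump were read in the same way, from a list of 30 genes of its assembly, its control and the lysosome, of which 29 were found in the annotation. Of the 29 genes, 6 had a conservative promoter summit, a share near the 17.3% of all protein-coding genes, and 23 had none. The strongest was Lamtor3, a subunit of the Ragulator complex that docks TOR signalling on the lysosome, with a signal of 1025, and 601 and 422 in replicates 1 and 2. CG7071 had 497, with 257 and 233. The Rab GTPase-activating protein gene sky had 417, with 239 and 187, and mtd, which encodes a TLDc domain protein, had 379, with 164 and 207. CtsL1, which encodes the lysosomal protease cathepsin L, had 131, with 75.5 and 65.2. Rbcn-3A, which encodes a rabconnectin that helps assemble the pump, had 75 and passed in neither replicate alone, with ranked signals of 41.6 and 35.5. Outside the conservative list, RagA-B, which encodes a Rag GTPase, passed in replicate 2 alone with 94.0 and had no ranked promoter summit in replicate 1. CG5969 passed in replicate 1 alone with 66.9, but had a ranked signal of 89.8 in replicate 2 that did not pass. These 2 were added after their values were seen.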

How the data were processed

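The samples are 2 ChIP-seq libraries of 1 group. The authors deposited peaks in narrowPeak form on dm6, per their accompanying text files. For signal, the deposited column of the authors' caller was taken as it stands, its scaling being unstated. The deposited score runs up to 1000 and comes from the IDR. In ranked lists the authors also gave the global IDR, as −log10. All conservative peaks have a score of at least 830, or a −log10 IDR of at least 2. No source used here names the aligner or the peak caller.

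Gene models came from Ensembl release 115 (BDGP 6.54) and sequence from RefSeq Release 6, whose chromosome lengths contain every peak. Summits were matched to start sites with Python 3.11.15, pandas 2.3.3 and numpy 2.4.6, a step tested on simulated data. Peaks were mostly of 1 fixed width in each list (416 bp for 70.1% of conservative peaks), so widths were not compared. The members, classes and lists were chosen with earlier results of these data known, so counts are given beside those of all protein-coding genes and no set test was made. VhaM8.9, listed among widely used genes, is named ATP6AP2 in the annotation. It is therefore no member, and it had no ranked promoter peak. Every Vha gene with a summit in any thresholded list was named with its values, with the neighbour whose start is nearest, and at most 6 genes of the other list, those of highest conservative signal. The alternatives were windows of 250 and 1000 bp, peak overlap, other lists and IDR limits, nearest start only and each replicate alone. No p-values were computed.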

Additional observations from a re-analysis of the deposited data

How the results depend on the processing

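The count of Vha genes with a conservative promoter summit stayed between 5 and 7 of 33 over 11 alternatives. Over the same settings the share of all protein-coding genes moved between 11.4% and 20.3%. Of 42 recomputed counts, 36 stayed within 1.5 times their reported value. Counts without a replicate ranged from 5 to 6 for all Vha genes, from 3 to 4 for widely used genes and from 2 to 2 for the other paralogues. The share of all protein-coding genes was 14.5% without replicate 1 and 16.1% without replicate 2. Without replicate 1, Vha36-1 was lost. The other paralogues fell to 1 within 250 bp and to 1 with the nearest start site only, Vha16-5 being lost both times, and to 1 when Vha68-1 was counted as widely used. All protein-coding genes stood at 13.9% within 250 bp, 12.4% with the nearest start only and 17.3% in the last case. Any ranked peak gave 22 Vha genes in replicate 1 and 20 in replicate 2, against 63.0% and 65.5% of all protein-coding genes. In replicate 2 the thresholded count fell to 3 of 33 within 250 bp, against 11.8% of all protein-coding genes. Within 1000 bp Vha14-1 was added, and ranked peaks at an IDR of at most 0.01, an alternative chosen after seeing the data, or at most 0.05 added Vha55. The share of all protein-coding genes was then 19.8%, 17.7% and 20.3%, in that order. Of the peaks passing in both replicates, 4 members' peaks overlapped reciprocally by 50%, against 5 with any overlap. No paired analysis was possible because there is 1 group. With 2 libraries, no read counts and no control library analysed here, depth and signal without the tag could not be measured.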
